A study of Drosophila melanogaster with 18 samples.

Results

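Small RNA was set against gene RNA in control embryos of Drosophila melanogaster, named GFP-MatKD in the labels, collected 0-1.5 h after egg laying. These libraries were chosen by their label: 6 of the 18 in the series, 3 of small RNA and 3 of RNA, with no knocked-down embryos among them. Mothers are labelled with stock 41550, a hairpin line named for GFP, together with the MAT-Gal4 driver, and fathers as w1118; the growth protocol instead puts the driver in the fathers, so the direction of the cross is uncertain. All embryos therefore came from crosses that also carried a Gal4 driver and a hairpin transgene, and wild-type embryos were not analysed here. Whole embryos were collected at 25 °C from cages of about 100 females and 20 males, so each library is a pool. For the small RNA libraries, a 15% gel was used to take the fraction between 20 and 30 nt. The labels do not say that replicates came from separate cages, so the SDs below may be technical.

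Embryos of this age live almost wholly on RNA and protein that the mother put into the egg. The small RNA passed on with them is rich in Piwi-interacting RNAs (piRNAs), which guide Piwi-family proteins to transposon transcripts and, for Piwi itself in the nucleus, to chromatin that becomes heterochromatin. piRNA precursors come largely from transposon-rich loci near centromeres, and many genes in those regions have long introns filled with transposon remains. A count at a gene therefore says that a small RNA read was assigned inside that gene's annotation, not that the gene's own messenger RNA was its source.

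The 3 small RNA libraries held 2947034, 3175634 and 2861722 expected counts over 17773 gene IDs, and the 3 RNA libraries 45033836, 16506869 and 32949325 reads over genes and 226 repeat elements. Small RNA is given as CPM (counts in each 1000000 of the library total), or as the percent of that total, and RNA as normalised reads. The library total is the sum over these gene IDs. All shares of small RNA below are therefore shares of counts assigned to gene IDs, and reads assigned to none are left out. A count of 0 allows up to 0.945 to 1.05 CPM, and this floor covers counting error only. A gene was taken to carry small RNA where it reached 10 CPM in each of the 3 libraries. The RNA was that of early embryos: osk, bcd, pgc, gcl and nanos, maternal RNAs of the egg's poles, averaged 5292 to 18419 normalised reads. All 5 muscle genes and all 7 eggshell and yolk protein genes listed stayed under 5 on average. The 12 early zygotic genes listed averaged 23.4 to 1182 normalised reads, with a median of 150. In whole embryos, fewer cells with an RNA and less of it per cell cannot be told apart.

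Small RNA was concentrated on very few genes. Of the 17773 gene IDs, 841 (4.73%) carried small RNA, and those 841 held 98.6% ± 0.252 (SD, n = 3) of all counts. Only 8 genes were needed to reach 50% of the counts, 46 to reach 75%, 169 to reach 90% and 1183 to reach 99%. At the other end, 6360 gene IDs (35.8%) had no count in any library. Between these ends the numbers fell steeply: 2667 genes reached 1 CPM in each library, 422 reached 100 CPM, 106 reached 1000 CPM and 12 reached 10000 CPM. Those 12 alone held 57.3% ± 0.0294 of the counts.

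**Figure D1:**
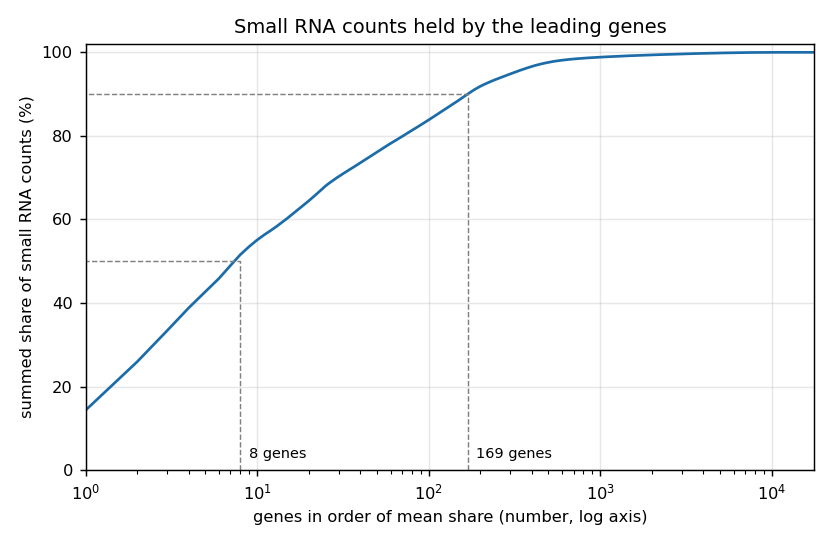
Summed mean share of small RNA counts (y axis, %) over genes taken in order of their share (x axis, number of genes, log axis), GFP-MatKD embryos, mean of 3 libraries. The curve passes 50% at 8 genes and 90% at 169 genes, marked by dashed lines.

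Myo81F, Pzl and lovit led in every library and together held 33.4% ± 0.195 of the counts (SD, n = 3). Myo81F, a gene for an unconventional myosin at chr3R:567076-2532932, held 143897, 143537 and 142097 CPM in the 3 libraries, or 14.3% of the counts on average. Pzl, which encodes a Piezo-like membrane channel and lies next to it at chr3R:2554162-3263582, held 114116, 117157 and 117009 CPM. The gene lovit, a transporter needed for visual transmission, lies at chr3L:25236940-25670980 and held 74780, 75830 and 74587 CPM. The libraries differed by little, with SDs of 952, 1715 and 669 CPM. These genes span 1966, 709 and 434 kb with introns included.

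RNA of the same 3 genes was close to absent. Myo81F had 5, 4 and 3 reads in the RNA libraries, a mean of 4.18 ± 2.28 normalised reads, Pzl had 2.97 ± 1.08 and lovit 1.63 ± 1.57 (SD, n = 3 each). The median over all gene IDs was 3.93 normalised reads, since many gene IDs had next to no RNA. None of the annotated genes that overlap these 3 came near their total of small RNA, a comparison that takes no account of length. Myo81F overlaps 5 annotated genes, of which 1 carried small RNA, lncRNA:CR46123 at 155 CPM, and all 5 together held 0.0164% of the counts.

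Next in order came genes of the Y chromosome. WDY at chrY:2273422-2487777 held 53357, 55787 and 53392 CPM, Ppr-Y at chrY:1636574-1884846 held 37161, 39467 and 38921 CPM, and kl-3, a dynein heavy chain gene needed for sperm movement, held 31701, 31921 and 31846 CPM. WDY and Ppr-Y had 0 reads in all 3 RNA libraries, and kl-3 averaged 0.918 ± 0.943 normalised reads. Of 12 listed Y-linked genes, 8 (66.7%) carried small RNA, against 4.73% of all gene IDs and 8 of the 123 Y genes in the table (6.50%), and together they held 14.01% ± 0.249 of the counts. The other 5 of the 8 were kl-5 (8323 CPM), kl-2 (3988 CPM), ORY (2478 CPM), PRY (478 CPM) and CCY (334 CPM), all with 0 RNA reads. Of the 4 that did not carry it, ARY averaged 0.208 CPM, and Pp1-Y1, Pp1-Y2 and FDY had no small RNA count. The Y gene list was therefore split between long genes rich in small RNA and members with almost none, while RNA was under 10 normalised reads for all 12. These Y-linked genes are known for activity in the male germ line, but a count at them does not place the source of the small RNA on the Y. Whether the reads counted at them also match other places was not tested.

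Further down the leading 20 came 5 genes on 2R, 3L and X. DIP-lambda, an immunoglobulin-domain surface protein, held 31204, 30651 and 30849 CPM. CG17684 held 26195, 26178 and 26007 CPM. Snap25, part of the synaptic vesicle fusion machinery, held 15507 ± 340 CPM, and dpr21, another surface protein of neurons, 8539 ± 351 CPM. RNA was low at each: 38.9, 79.8, 2.27 and 0.289 normalised reads on average for DIP-lambda, CG17684, Snap25 and dpr21. The long noncoding RNA flam (flamenco), at chrX:21631891-21790731, is the classic piRNA locus of the somatic cells around the germ line. It held 9552, 10797 and 9628 CPM, about 1.00% of the counts, at 47.8 ± 7.44 normalised reads of RNA. It ranked 13, below 11 genes with a name and FBgn0058178, an ID with no matched symbol that held 12345 ± 669 CPM.

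Of the 20 leading genes, 9 had under 10 normalised reads of RNA, 6 lay between and 5 had 1000 or more. The 5 with much RNA were scrib, Dbp80, Gprk1, AGO3 and Parp1. The gene scrib, a scaffold of epithelial cell polarity at chr3R:26536350-26604051, held 22289, 15139 and 20453 CPM of small RNA beside 13659, 12048 and 13678 normalised reads of RNA. It varied most among the 20, with replicate 2 low and a coefficient of variation of 19.2%, against a median of 2.85% over the 20. AGO3, itself a Piwi-family protein that amplifies piRNAs, lies at chr3L:23554593-23689640 and held 7355, 8813 and 7201 CPM beside 7019 ± 884 normalised reads of RNA. High small RNA was thus found at genes with almost no RNA and at genes with abundant RNA.

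**Figure D2:**
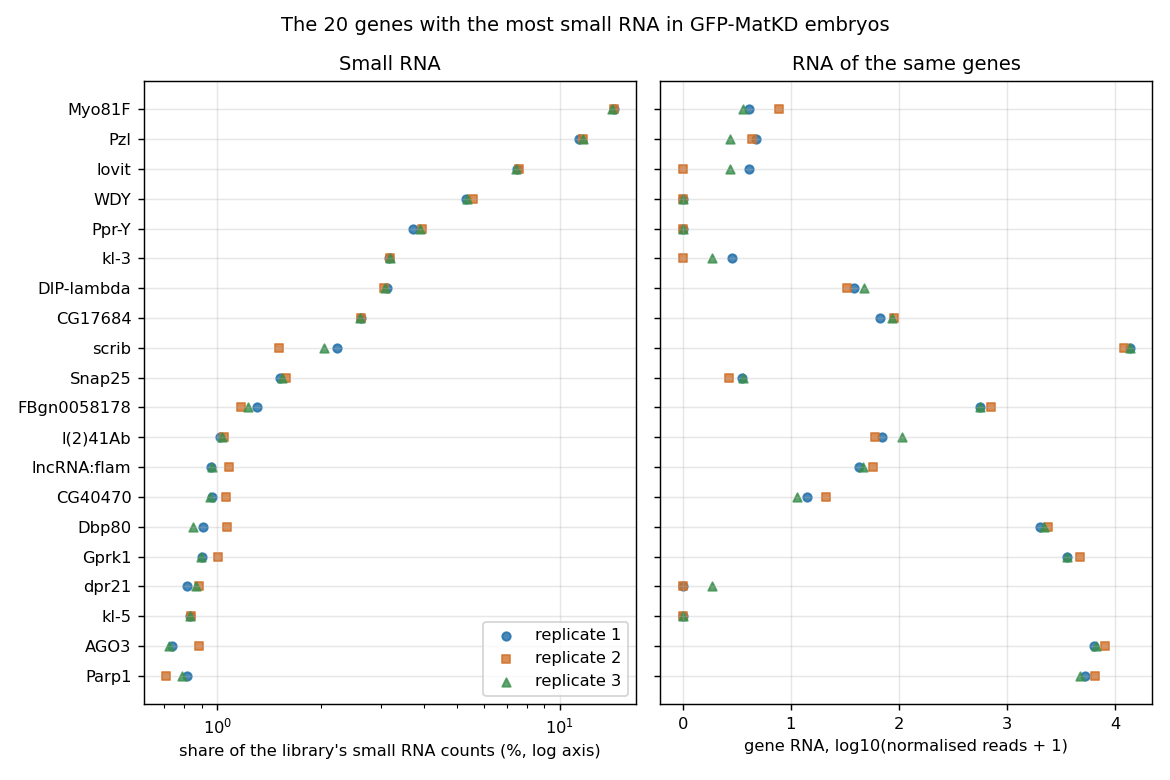
Share of small RNA counts (left, %, log axis) and RNA of the same gene (right, log10 of normalised reads + 1) for the 20 genes with the most small RNA in GFP-MatKD embryos, one symbol per replicate library (replicate numbers do not pair the panels). Small RNA replicates nearly coincide except at scrib, while RNA runs from 0 at WDY, Ppr-Y and kl-5 to 13128 normalised reads at scrib.

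Long genes held most of the small RNA. The 91 genes that span 100 kb or more held 67.0% ± 0.936 of the counts, and 76 of them (83.5%) carried small RNA. Among genes of 30 to 100 kb, 266 of 587 (45.3%) carried it and held 19.2% ± 0.687. Among the 5544 genes under 1 kb, 28 (0.505%) carried it, with 0.763% ± 0.00927 of the counts. Across 17667 genes with a span, Spearman's rho between small RNA and span was 0.60, and among the 828 carrying genes with a span it was 0.47. Both are descriptions across genes of the same libraries, and a longer gene offers more sequence for a read to fall in. Of the 19 leading genes with a span, 17 had 100 kb or more, and the shortest, scrib, had 67.7 kb.

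Small RNA was also counted per kb of span. Over those 19 genes the density ran from 57.7 to 285 CPM per kb with a median of 72.2, and 12 of the 19 lay between 55 and 85. AGO3 (57.7), Parp1 (61.3), Gprk1 (62.7), flam (62.9), Dbp80 (65.9), CG17684 (66.0) and Myo81F (72.8) were all in that range. These genes were picked for their small RNA: over all genes of 30 kb or more within 5 Mb of the centromere-side end of a large arm, the median was 13.5 CPM per kb. WDY (253), lovit (173), Pzl (164) and scrib (285) were denser. The median of all 17667 genes was 0.0507 CPM per kb. The highest density was outside the leading 20: udd, a factor for RNA polymerase I transcription, spans 0.989 kb at chr2R:8106385-8107373 and held 3201, 2676 and 3346 CPM, or 3109 CPM per kb. Those values lay near the 3335, 2754 and 3458 CPM of brat on 2L. Whether these genes share reads was not tested, so the density may not be that of udd alone.

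Small RNA also went with position along the chromosome arm. On the 5 large arms, the 1446 genes whose nearer edge lies within 5 Mb of the centromere-side end (the first base of 2R and 3R, the last annotated gene of 2L, 3L and X) held 57.3% ± 0.683 of the counts, and 172 (11.9%) carried small RNA. The 15922 genes farther out held 25.5% ± 0.911, and 587 (3.69%) carried it. The leading 3 genes lie inside this window; without them, the window held 35.9% of the remaining counts and the genes farther out 38.3%, so the order of the 2 shares turned round. Within each arm, the 5 Mb held 79.3% of the counts of 3R, 72.4% of 2R, 71.4% of 3L, 48.1% of 2L and 24.9% of X. The difference in carrying was seen within broad classes of gene length too: among genes of 30 kb or more, 58 of 63 (92.1%) near the arm end and 269 of 600 (44.8%) farther out carried small RNA, and among those under 10 kb the numbers were 55 of 1254 (4.39%) and 160 of 14159 (1.13%). Of the leading 20 genes, 14 lay in this window, 4 on the Y and 1, FBgn0058178, had no place. The remaining gene, scrib, lies far out on 3R, where its Mb held 2.05% of all counts.

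**Figure D3:**
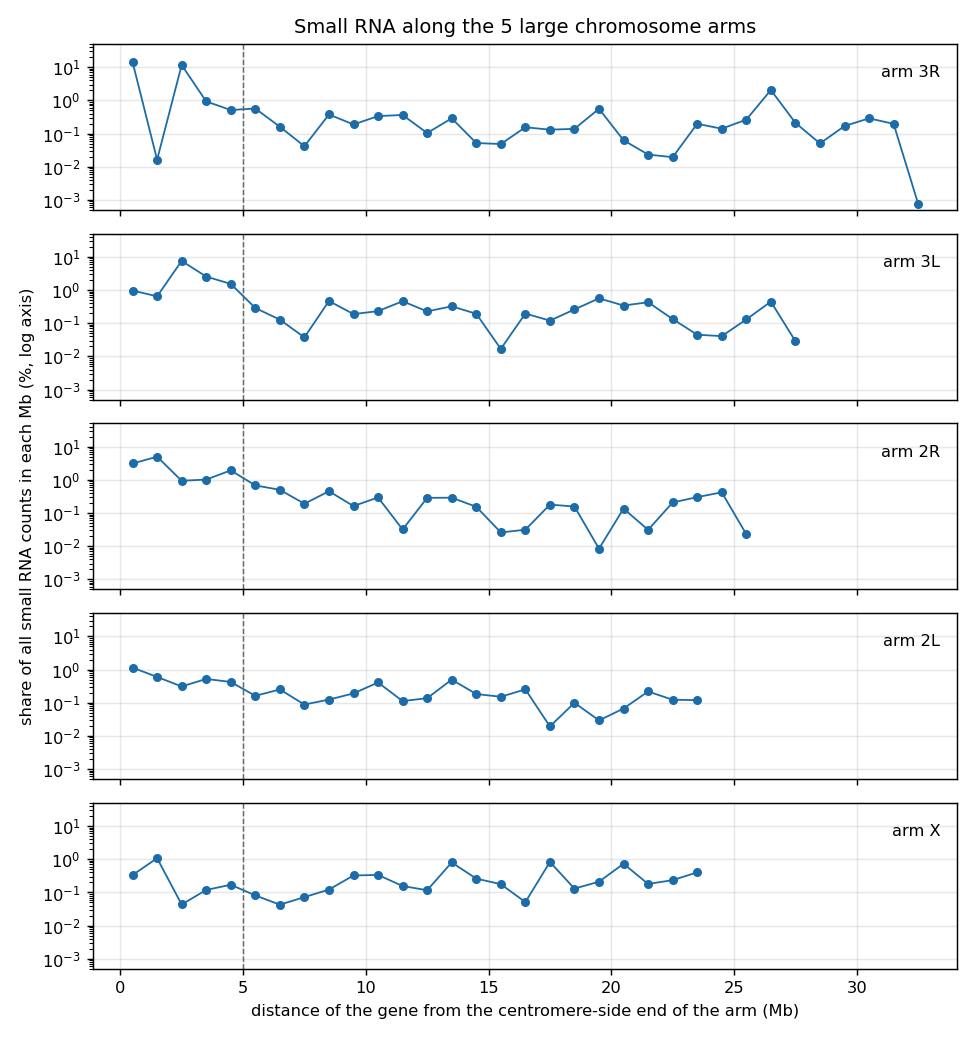
Share of all small RNA counts in each Mb (y axis, %, log axis) by distance from the centromere-side end of the arm (x axis, Mb), mean of 3 GFP-MatKD libraries, with a dashed line at 5 Mb. On all 5 arms the highest point lies left of the line, led by 14.3% in the Mb of 3R that holds Myo81F. On X the other points left of the line lie within the range of those right of it.

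By chromosome, 3R held 34.5% ± 0.365 of the counts, 3L 18.6% ± 0.259, 2R 16.5% ± 0.235, Y 14.03% ± 0.248, X 7.01% ± 0.0255, 2L 6.23% ± 0.0761 and chromosome 4 1.10% ± 0.0295. The share of genes that carried small RNA gave another order. On chromosome 4, a small chromosome that is largely heterochromatic, 48 of 111 genes (43.2%) carried it, against 4.73% of all gene IDs. Genes there had a median span of 6.94 kb, against 1.69 kb over all gene IDs. Of all genes of 3 to 10 kb, 3.96% carried small RNA. The highest genes of chromosome 4 were Syt7 (2503 ± 54.9 CPM), a synaptotagmin, unc-13 (1835 ± 213 CPM), which primes synaptic vesicles, and Rnf11 (1316 ± 229 CPM). Their RNA was unlike: 4.40, 9226 and 543 normalised reads. On the Y, 8 of 123 genes (6.50%) carried it, so a large share of counts lay at few genes there.

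Of 17 genes found from a list of 19 known for lying in heterochromatin, 15 (88.2%) carried small RNA, against 4.73% of all gene IDs. Their median span was 35.2 kb, and of all genes of 30 to 100 kb 45.3% carried it. Unlike the Y-linked genes, these had abundant RNA, with a median of 5147 normalised reads. Levels above 1000 CPM of small RNA beside abundant RNA were found at Dbp80, a DEAD-box helicase (9414 ± 1141 CPM), Gprk1, a receptor kinase (9334 ± 589 CPM), Parp1, a poly(ADP-ribose) polymerase (7708 ± 550 CPM), rl, the MAP kinase ERK (3767 ± 105 CPM), CG17493 (2276 ± 89.9 CPM), Nipped-A (1652 ± 56.4 CPM), uex (1472 ± 16.0 CPM) and the mitotic kinase gene Haspin (1007 ± 92.6 CPM). The exceptions in RNA were l(2)41Ab, with 10303 ± 130 CPM of small RNA at 78.4 normalised reads, and spok, an enzyme of ecdysone synthesis, with 1053 ± 33.5 CPM at 0.289. The 2 members that did not carry small RNA were the ribosomal protein genes RpL15 (0.343 CPM) and RpL38 (0.210 CPM), with RNA of 30199 and 7413 normalised reads. The cohesin genes Nipped-B (502 CPM) and vtd (203 CPM), lt (394 CPM), cta (29.9 CPM) and RpL5 (29.8 CPM) lay lower.

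Of 28 genes of the piRNA pathway, 6 (21.4%) carried small RNA, against 4.73% of all gene IDs, and their median of 0.545 CPM stood beside 0.116 CPM over all gene IDs. Over all genes with 1000 to 10000 normalised reads of RNA, the median was 0.641 CPM and 6.71% carried small RNA. AGO3 alone held most of the list's summed 0.923% ± 0.106. The gene nxf2, which acts in piRNA-guided silencing at chromatin, followed with 1092, 1343 and 1123 CPM. Then came qin (130 ± 16.1 CPM), vas (77.8 ± 15.4 CPM), Hen1, the methyltransferase that seals piRNA ends (15.2 ± 3.67 CPM), and mino (14.1 ± 2.69 CPM). The piwi gene had 9.50 ± 2.52 CPM, with RNA of 8748 ± 715 normalised reads, and aub and spn-E had still less small RNA. Median RNA over the 28 genes was 3305 normalised reads. Of 4 genes beside or giving known ovarian piRNA loci, jing and Pld, which flank the 42AB locus, carried 1930 ± 122 and 149 ± 6.73 CPM, while DIP1 beside flamenco (3.58 CPM) and tj (0.0380 CPM) did not.

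Of 13 maternal germ plasm and patterning genes, 2 (15.4%) carried small RNA, against 4.73% of all gene IDs: vas, and osk with 34.7, 28.3 and 57.3 CPM beside 18419 ± 832 normalised reads of RNA. The median of the 13 was 1.80 CPM of small RNA and 11731 normalised reads of RNA, against 0.116 CPM and 3.93 normalised reads over all gene IDs, and together they held 0.0149% ± 0.00206 of the counts. All genes with 10000 or more normalised reads had a like median of 1.81 CPM, and 11.2% of them carried small RNA. Among 92 cytoplasmic ribosomal protein genes, 4 (RpL29, RpL5, RpL12 and RpS12) carried small RNA, 4.35% against 4.73% of all gene IDs, and the 92 together held 0.0312% ± 0.00729 of the counts at a median RNA of 9607 normalised reads. None of 115 histone genes carried small RNA, and the highest of them reached 4.52 CPM. Copies such as His1:CG31617 and His1:CG33801 held the same counts in each library, and whether they share reads was not tested. None of 12 early zygotic genes, 5 muscle genes or 7 eggshell and yolk protein genes carried small RNA. The mitochondrial genome held 0.106% ± 0.00755 of the counts, led by mt:CoI at 398 ± 36.2 CPM.

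Other known sources of small RNA were looked at in turn. Of 47 Stellate and Suppressor of Stellate genes, which give the main piRNA pair of the testis, 2 (4.26%) carried small RNA, near the 4.73% of all gene IDs, the higher being Ste:CG33236 at 49.9 ± 7.54 CPM. The other Ste copies averaged 12.2 to 13.2 CPM and missed the cut by replicate 2, at 9.06 to 9.62 CPM, while no Su(Ste) copy averaged over 5.53 CPM. The median of the 47 was 4.17 CPM, against 0.116 CPM over all gene IDs. Ste:CG33239 and Ste:CG33241 held the same counts in each library (41.41, 30.47 and 42.93), so the number of carrying copies does not measure the family as a whole. Whether these near-identical copies share reads was not tested. Among 8 hairpin RNA genes and PolQ, a target of their siRNA, 1 (11.1%) carried small RNA, against 4.73% of all gene IDs. With 1 carrier in so short a list, these shares cannot be told apart. The carrier was hpRNA:CR18854, with 65.5, 21.3 and 99.5 CPM, where the libraries did not keep to one level. The 262 microRNA genes together had 1.38, 0.330 and 1.83 counts, under the floor of 3 counts in each library. Whether microRNA reads were set aside before counting is not given in the sources used here, so this says nothing on microRNA in the embryos. Protein-coding genes held 95.04% ± 0.0398 of the counts, long noncoding RNAs 2.03% ± 0.0774, pseudogenes 0.577% ± 0.0640 and antisense RNAs 0.568% ± 0.0315.

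Across genes, small RNA and RNA levels went together only weakly. Over the 10801 genes with at least 1 CPM of small RNA or 1 normalised read of RNA, Spearman's rho was 0.12, and 0.10, 0.05 and 0.12 when each numbered small RNA library was taken with the RNA library of that number. The value rested on which genes entered: it was 0.52 over all 17719 joined genes, many of which had neither, -0.05 over the 3641 genes with both, and -0.11 over the 837 carrying genes with an RNA value. Among the 105 of these at 1000 CPM or more it was -0.14. All are descriptions across genes, which are not replicates and share library and depth.

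Counts were not spread over RNA levels as genes were. Of the 17719 joined genes, 9490 had under 10 normalised reads of RNA. These 9490 genes held 60.8% ± 0.359 of the small RNA, and without the leading 3 such genes held 41.1% of the remainder. The 5477 genes with no RNA read in any library held 13.5% ± 0.136, with 67 of them carrying. By class, genes with 1 to 10 normalised reads held 40.02% ± 0.254 of the counts, and those with 10000 or more held 4.996% ± 0.440. Myo81F, Pzl and lovit all fall in the class of 1 to 10, and by themselves held 33.4% of all counts. The share of genes that carried small RNA had another order, at 1.87% of 7531 genes under 1 normalised read, 6.28% of 1959 genes from 1 to 10, 9.53% of 1217 from 10 to 100, 4.97% of 2335 from 100 to 1000, 6.71% of 4081 from 1000 to 10000 and 11.2% of 596 at 10000 or more. The carrying share thus showed no steady order with RNA level. Genes with under 10 normalised reads held most of the counts only with the leading 3 genes included.

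Carrying genes had a median RNA of 279 normalised reads with quartiles of 3.32 and 3561, against 3.16 with quartiles of 0 and 1064 for the 16882 others. Of the carriers, 264 (31.5%) had under 10 normalised reads and 341 (40.7%) had 1000 or more, against 54.6% and 25.7% of the others. They were also longer, with a median span of 22.3 kb against 1.61 kb for the others. Taken as ratios, the carrying shares by RNA level within a class of length lay closer together for long genes than for short ones. In percentage points they did not keep that order. Among genes of 100 kb or more, 23 of 27 with under 10 normalised reads (85.2%), 28 of 33 between (84.8%) and 25 of 31 with 1000 or more (80.6%) carried small RNA. The median small RNA of those groups was 1839, 310 and 246 CPM. For genes of 30 to 100 kb, the numbers were 95 of 234 (40.6%), 79 of 163 (48.5%) and 91 of 189 (48.1%). At 10 to 30 kb they were 69 of 458 (15.1%), 59 of 275 (21.5%) and 118 of 594 (19.9%). Under 10 kb they were 73 of 8717 (0.837%), 60 of 3065 (1.96%) and 104 of 3835 (2.71%), so short genes with much RNA carried small RNA at over 3 times the share of short genes with little. That class still mixes lengths: genes under 1 kb had a median RNA of 0 with 0.505% carrying, and genes of 3 to 10 kb 1200 with 3.96%. Length and RNA level were not separated within it.

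**Figure D4:**
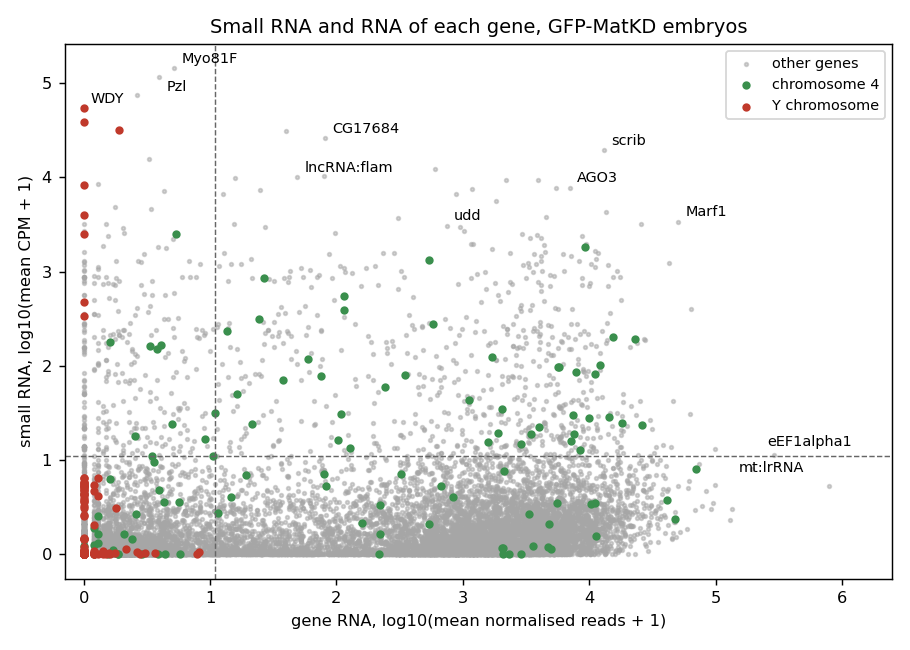
Mean small RNA (y axis, log10 of CPM + 1) against mean RNA (x axis, log10 of normalised reads + 1) for 17719 genes of GFP-MatKD embryos, with genes of the Y chromosome and chromosome 4 coloured and dashed lines at 10. High small RNA is found from 0 RNA (WDY) to 13128 normalised reads (scrib), and the gene with the most RNA, mt:lrRNA, lies under the horizontal line.

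At the top of the RNA scale, the 1019 genes at 6923 normalised reads or more, the top 10% of the 10188 genes with RNA, held 7.32% ± 0.504 of the small RNA, and 116 (11.4%) carried it. The highest after scrib and AGO3 were mtd, Marf1 and brat. The gene mtd held 4286, 4331 and 4287 CPM at 13596 ± 1115 normalised reads of RNA. Marf1, a regulator of RNA in oocytes, held 3422, 3450 and 3314 CPM at 50591 ± 5601 normalised reads. The gene brat, a repressor of maternal messages, held 3335, 2754 and 3458 CPM at 25831 ± 1859 normalised reads. None of the 10 genes with the most RNA (mt:lrRNA, eEF1alpha1, eEF2, Hsp83, CycB, Hsc70-4, smg, me31B, tral and Act5C) carried small RNA. They ran from 83794 to 784643 normalised reads and from 1.30 to 12.1 CPM, and the longest spans 7.67 kb.

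Some genes had the same small RNA value to within 1% in every library. Among the 106 genes at 1000 CPM or more, 4 such pairs were found, and 3 of them joined genes on different chromosomes. GluClalpha on 3R and CG7213 on 3L held 3161 ± 51.6 and 3160 ± 50.5 CPM, and brat on 2L and CG32369 on 3L held 3183 ± 376 and 3177 ± 376 CPM. RNA was unlike within a pair: brat had 25831 and CG32369 14.5 normalised reads. Lower down, Tsp39D, chinmo and CG42329 on 2L, which do not overlap, held 293, 291 and 290 CPM in replicate 1, 220, 219 and 217 CPM in replicate 2 and 180, 179 and 177 CPM in replicate 3. How reads that match several places were assigned is not given in the sources used here, and their part in these values was not tested; for such genes the level cannot be assigned to one of them.

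Spread between libraries was small for most genes at 100 CPM or more in each library, and was not summarised for genes below that. Over the 422 genes at 100 CPM or more the median coefficient of variation was 8.30% and the quartiles 4.37% and 12.3%, with 19 genes above 20%. The largest was apt, a transcription factor gene, at 1200, 169 and 5701 CPM, while its RNA stayed at 8752 ± 517 normalised reads. No other of the 422 exceeded 30.1%. Replicate 2 was the highest library for 229 of the 422, replicate 1 for 135 and replicate 3 for 58. The 88 such genes near the centromere-side ends had a median of 6.99%, the 301 farther out 9.84%, and the 23 on the Y and chromosome 4 3.97%. These groups were not matched for small RNA level, and whether spread followed level was not tested.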

How the data were processed

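Members, lists and thresholds were chosen with earlier results of these data known. Small RNA values are expected counts per gene as deposited (63.3% to 71.6% of values above 0 were not whole), scaled here to each library's total. RNA values are signal deposited as whole reads divided by a size factor per library: 100% came out whole within 0.02 reads. Per the submitters' processing notes, cutadapt, Bowtie 1.2.2, featureCounts and build BDGP6 were used, with no role or order given. Strand, and whether introns were counted, are not given in the sources used here. Tables were joined by gene ID (17719 in both). Symbols matched 17668 of the 17773 small RNA IDs, and 17667 had a place in RefSeq Release 6, the source of coordinates and gene spans. As all libraries are of 1 group, no test was run: means, SDs and Spearman's rho are descriptions. Named genes are the 20 highest in small RNA, the 5 highest with under 10 normalised reads and in the top 10% of RNA, the 10 highest in RNA, the 3 highest per gene type and carrying members of lists; genes of highest density, of chromosome 4, of matching values and of largest spread were chosen after their values were seen. Between replicates, chi-square per degree of freedom was 9.09 to 22.0 for small RNA and 26.6 to 31.7 for RNA. The 12 columns of other samples were not used. Alternatives included TMM scaling (edgeR 4.0.16), other thresholds and leaving out each replicate.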

Additional observations from a re-analysis of the deposited data

How the results depend on the processing

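The number of genes carrying small RNA was 2667 at 1 CPM and 422 at 100 CPM, 842 with TMM-scaled totals, and 865 to 929 with 1 replicate left out. The leading 3 genes held 35.2% of protein-coding counts alone, and 33.3% to 33.5% with 1 replicate left out. The number of genes that reach 50% of the counts was 21 without the leading 3, and 4 with genes within 10% of each other counted once. Spearman's rho of small RNA against RNA was 0.52 over all joined genes, -0.0507 over genes with both, 0.0402 per kb of span and -0.11 over carrying genes, the last chosen after seeing the data, so its sign depends on the genes taken; it was 0.09 to 0.14 with 1 replicate left out. Genes with little RNA held 75.2% of the counts at a limit of 100 normalised reads, 20.7% at 1, 41.1% without the leading 3, and 60.6% to 61.1% with 1 replicate left out. Without the leading 3 genes, shares were 12.9% for 3R, 16.6% for 3L, 24.8% for 2R, 21.1% for Y, 10.5% for X, 9.35% for 2L and 1.65% for chromosome 4. No paired analysis was possible because the result comes from no test and only 1 group was used. Genes near the floor of about 1 CPM cannot be ranked at this depth. Gene span includes introns, so density per kb is not per kb of transcript.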
